A study of Mus musculus with 8 samples.

Results

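The type I interferon genes described here are 9 interferon-stimulated genes, Ifit1, Ifit2, Ifit3, Isg15, Ifih1, Ifi35, Ifi27, Ifi204 and Usp18, in mouse embryonic fibroblasts (MEFs) with and without the transcription factor Stat3. They were taken by name, through every probe set whose single gene symbol in the platform annotation was one of the 9. That gave 11 of the 12422 probe sets that were not controls, and 9 of 8251 genes with a single symbol. Of the 11 probe sets 10 reached a log2 value of 5 on at least 2 arrays and were tested among 6756 probe sets. The one left out was the third probe set of Ifi204, which read 3.29 to 3.84. All 9 genes had a tested probe set.

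The groups were Stat3 KO MEFs with oncostatin M (OSM), Stat3 WT MEFs with OSM, Stat3 KO MEFs untreated and Stat3 WT MEFs untreated. Stat3 KO cells lack both copies of the gene (STAT3-/-) and Stat3 WT cells carry both (STAT3+/+). OSM is a cytokine of the interleukin-6 family, and it was given at 20 ng/ml for 30 minutes. All cells were spontaneously immortalised and grew in medium with heat-inactivated serum and antibiotics. As 1 line stands for each genotype, an effect of Stat3 and any other difference between the lines cannot be told apart. Each group held 2 arrays, whose titles carry the number 02 or 03, so each number held 1 array of every group. What this number stands for, and whether the arrays came from separate cultures, is not stated in the labels. A p-value therefore measures only how far these arrays scatter, and that scatter may be technical.

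Type I interferons are secreted proteins that cells make on sensing viral nucleic acid. They bind the receptor pair Ifnar1 and Ifnar2, whose kinases Jak1 and Tyk2 start a signal that ends in a complex, with Stat2 and Irf9 among its subunits, that binds the interferon-stimulated response element (ISRE) before antiviral genes. Stat3 is the main factor downstream of the OSM receptor, and Stat3 homodimers bind another element, the interferon-gamma activated site (GAS). Fibroblasts respond to type I interferon and make interferon beta themselves.

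The name of the group refers to the ISRE, so the promoter sequences were read from RefSeq (GRCm38.p6) for the members that had one, 6 of the 9. The windows held 250 bases before and 50 after a transcription start. Both strands (the GAS core reads alike on each) were searched for the ISRE core, 2 GAAA words with 2 bases of any kind between them, and for the GAS core, TTCNNNGAA, in which N is any base. Ifit1 and Ifit3 each held 2 ISRE matches and Isg15 held 3 that overlap each other. Ifih1 held 1, GAAACAGAAA, which lay 32 to 41 bases after the first transcribed base. Of all 32851 windows 3.44% held at least 1 ISRE match and 0.225% held 2 or more. Ifit2, in both of its windows, and Ifi35 held no ISRE match, and each held 1 GAS match, as did 8.30% of all windows. The stretches of 200 bases just before the start are shown for the 3 genes with several matches, whose levels differed widely between arrays, and for Ifi35 as a member without one. Capitals mark the ISRE matches, and the sequences run 5′ to 3′ on the strand of the gene.
Ifit1, chr19:34640689-34640888, plus strand: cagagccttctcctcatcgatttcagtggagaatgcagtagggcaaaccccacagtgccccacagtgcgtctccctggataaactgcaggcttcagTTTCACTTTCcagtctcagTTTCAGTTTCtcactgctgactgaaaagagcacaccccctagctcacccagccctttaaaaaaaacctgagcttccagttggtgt
Ifit3, chr19:34583329-34583528, plus strand: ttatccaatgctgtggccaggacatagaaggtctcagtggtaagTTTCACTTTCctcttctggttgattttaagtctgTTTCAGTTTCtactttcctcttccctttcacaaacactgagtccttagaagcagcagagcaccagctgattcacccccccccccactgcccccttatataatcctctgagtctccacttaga
Isg15, chr4:156200819-156201018, minus strand: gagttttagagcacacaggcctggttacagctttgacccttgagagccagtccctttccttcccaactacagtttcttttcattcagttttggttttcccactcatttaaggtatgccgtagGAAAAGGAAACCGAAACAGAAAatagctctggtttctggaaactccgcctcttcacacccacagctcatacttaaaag
Ifi35, chr11:101448212-101448411, plus strand: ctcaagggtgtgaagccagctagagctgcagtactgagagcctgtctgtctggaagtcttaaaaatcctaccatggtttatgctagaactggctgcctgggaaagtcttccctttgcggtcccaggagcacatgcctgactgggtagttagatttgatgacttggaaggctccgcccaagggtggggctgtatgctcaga
The matches of Ifit1 lay 104 to 95 and 85 to 76 bases before the start, those of Ifit3 156 to 147 and 122 to 113 bases before it, and the run of Isg15 covered bases 78 to 57 before it. Ifit1 and Ifit3 held the same pair of words, TTTCACTTTC and then TTTCAGTTTC, which are the ISRE core read on the other strand. A match is a description of these letters and not evidence of binding. Promoters of Ifi27, Ifi204 and Usp18 were not analysed here.

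All values are the authors' log2 expression values, in which a difference of 1 is a 2-fold change. A value under 5 was read as near background, so a difference from such a value is not exact. Arrays of one number and different groups correlated at 0.932 to 0.977 across probe sets, and both arrays of a group at 0.869 to 0.926. The 18S 3′ control read 14.75 to 15.13 on number 03 arrays and 11.02 to 11.67 on number 02 arrays, and the spiked BioB 3′ control read 6.73 to 7.36 on number 03 arrays and 9.78 to 10.05 on number 02 arrays. On the first principal component the Stat3 KO OSM array of number 02 lay at -19.4, apart from the other number 02 arrays at -54.7 to -48.1. Of 12 fibroblast markers 9 reached 5 on all arrays, while Vim and Thy1 stayed under 5 on every array. Of 11 leukocyte markers on the array 9 stayed under 5 on every array, Ptprc, Cd68, Emr1 and Itgam among them, while Csf1r read 8.80 to 10.20 and Cd14 9.34 to 11.62. The summed level of the list (log2 of the sum) was 10.29 to 11.87 in number 03 and 10.73 to 11.40 in number 02. Stat3, on its probe set with the higher mean, read 7.81 to 9.17 in the Stat3 KO arrays and 10.11 to 11.94 in the Stat3 WT arrays. Its other probe set read 7.30 on the Stat3 KO OSM array of number 03 and 2.76 to 2.94 on the remaining Stat3 KO arrays. RNA was taken from whole cultures, in which fewer cells of a type and less RNA per cell cannot be told apart.

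These genes differed widely between the title numbers. Transcripts of 8 of the 9 genes were higher in number 03 than in number 02 by limma with number as a term beside the 4 groups (adjusted p under 0.05), where 41.1% of all tested probe sets differed and 23.4% were higher in number 03. Usp18 and Ifit3 reached the filter only through their number 03 arrays, so they could enter this test only by being higher there, and 6 of the other 7 genes passed. Usp18, Ifit3 and Ifit1 held ranks 1, 2 and 3 of all 6756 probe sets by the size of the rise, but this order rests on number 02 values near background and is not exact. The median over the 9 genes was 3.36, beside 0.09 over all tested probe sets. With 1 array left out in turn the median over the 9 genes ranged from 3.15 to 3.61, and Ifi35 was the only member whose call changed.

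Usp18 removes the ubiquitin-like protein Isg15 from its targets and also restrains signalling at the interferon receptor. In number 03 it read 13.16 in Stat3 KO OSM, 8.73 in Stat3 WT OSM, 12.15 in Stat3 KO untreated and 8.56 in Stat3 WT untreated cells. In number 02 these groups read 2.48, 2.14, 4.33 and 1.66. All number 03 arrays lay above all number 02 arrays, and every number 02 array lay under 5. The difference was 8.0, or 5.65 once values under 5 were raised to 5. In a fit of all 12422 probe sets without the filter, which it entered whatever its level, its SE was 0.69 (limma adjusted p = 0.00382).

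Ifit3 is one of the Ifit proteins, which bind viral RNA or restrict its translation. Its number 03 values were 14.98 in Stat3 KO OSM, 10.25 in Stat3 WT OSM, 13.51 in Stat3 KO untreated and 10.54 in Stat3 WT untreated cells. Its number 02 values were 7.05, 2.88, 4.12 and 3.31 in the same order. The numbers did not overlap, and 3 of the 4 number 02 arrays lay under 5. Ifit3 differed by 7.98, or by 6.81 once values under 5 were raised to 5, with an SE of 0.39 in the fit without the filter (limma adjusted p = 0.0025).

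Ifit1, which binds viral RNA that lacks the methylation of the host cap, read 14.63 in Stat3 KO OSM, 12.22 in Stat3 WT OSM, 13.44 in Stat3 KO untreated and 11.54 in Stat3 WT untreated cells of number 03. The number 02 arrays read 8.35, 4.08, 6.18 and 2.98 in that order. Here too the numbers did not overlap, and in number 02 both Stat3 WT arrays lay under 5. The difference was 7.56 ± 0.40 (limma SE, adjusted p = 0.00255), or 6.83 once values under 5 were raised to 5.

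Ifih1 encodes MDA5, a cytosolic sensor of long double-stranded RNA. It read 13.61 in Stat3 KO OSM, 10.73 in Stat3 WT OSM, 11.92 in Stat3 KO untreated and 9.62 in Stat3 WT untreated cells of number 03. The same groups of number 02 read 8.48, 7.41, 5.85 and 6.42. All values were over 5 and the numbers did not overlap, with a difference of 4.43 ± 0.53 (limma SE, adjusted p = 0.00484). Isg15, the ubiquitin-like modifier itself, read 15.76, 13.70, 15.25 and 12.97 in these groups of number 03 and 12.06, 11.06, 11.25 and 9.85 in those of number 02. It was the highest on the Stat3 KO arrays of number 03, did not overlap between numbers and differed by 3.36 ± 0.24 (limma SE, adjusted p = 0.00292).

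The remaining members differed less between the numbers. Ifi27, a small membrane protein of the Ifi6 and Ifi27 family, read 12.45, 12.68, 12.61 and 12.50 in Stat3 KO OSM, Stat3 WT OSM, Stat3 KO untreated and Stat3 WT untreated cells of number 03 and 11.20, 11.23, 11.51 and 11.37 in those of number 02. It formed 1 level per number, with a spread of 0.11 in number 03 and 0.15 in number 02 (SD, n = 4 arrays each), and differed by 1.23 ± 0.13 (limma SE, adjusted p = 0.00417). Ifi204, a member of the HIN-200 family of nucleic acid binding proteins, read 14.24, 13.94, 12.61 and 12.32 in number 03 and 13.33, 11.82, 11.62 and 10.60 in number 02. Its numbers overlapped, because the Stat3 KO OSM array of number 02 lay above the untreated arrays of number 03, but it passed at 1.43 ± 0.24 (limma SE, adjusted p = 0.00933). The second tested probe set of Ifi204 gave 1.47 ± 0.22 (limma SE, adjusted p = 0.00765).

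Ifi35, which binds the leucine zipper protein Nmi, read 13.51, 11.82, 12.82 and 11.12 in number 03 and 11.32, 11.38, 10.42 and 10.43 in number 02, in the same order of groups. The numbers overlapped, as the Stat3 WT untreated array of number 03 lay below both OSM arrays of number 02. Its difference of 1.43 ± 0.38 (limma SE, adjusted p = 0.0321) was not called after median centring (adjusted p = 0.063) and, with 1 array left out in turn, in 6 of 8 fits (adjusted p up to 0.0985). Ifit2, which restricts translation and viral growth in mice, read 12.39, 9.04, 10.52 and 9.21 in number 03 and 9.48, 9.13, 8.96 and 9.16 in number 02. Only the Stat3 KO arrays of number 03 stood above the rest, and the difference of 1.11 ± 0.53 did not pass (limma SE, adjusted p = 0.144). In all, 6 of the 9 genes had every number 03 array above every number 02 array, as 22% of tested probe sets did. Usp18 and Ifit3 among the 6 reached the filter only through number 03 arrays. Of the other 7 genes, Ifit1, Isg15, Ifih1 and Ifi27 had that order.

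**Figure D1:**
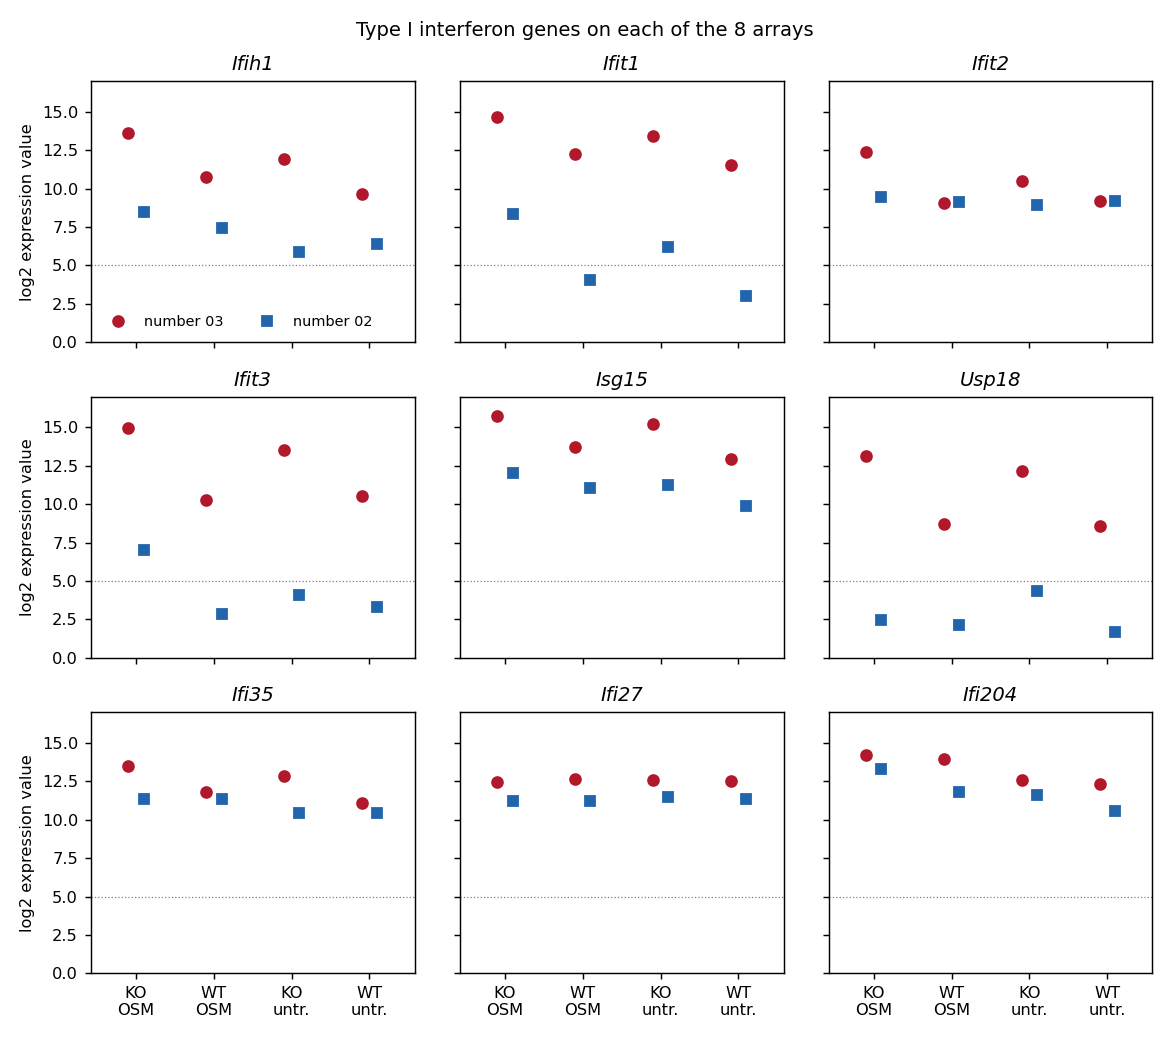
Log2 expression value (y axis) of the 9 genes in the 4 groups (x axis), 1 point per array, with number 03 as red circles and number 02 as blue squares; the dotted line marks the value of 5 used for filtering. The red points lie far above the blue ones for Ifit1, Ifit3 and Usp18, and close to them for Ifit2 in Stat3 WT cells.

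**Figure D2:**
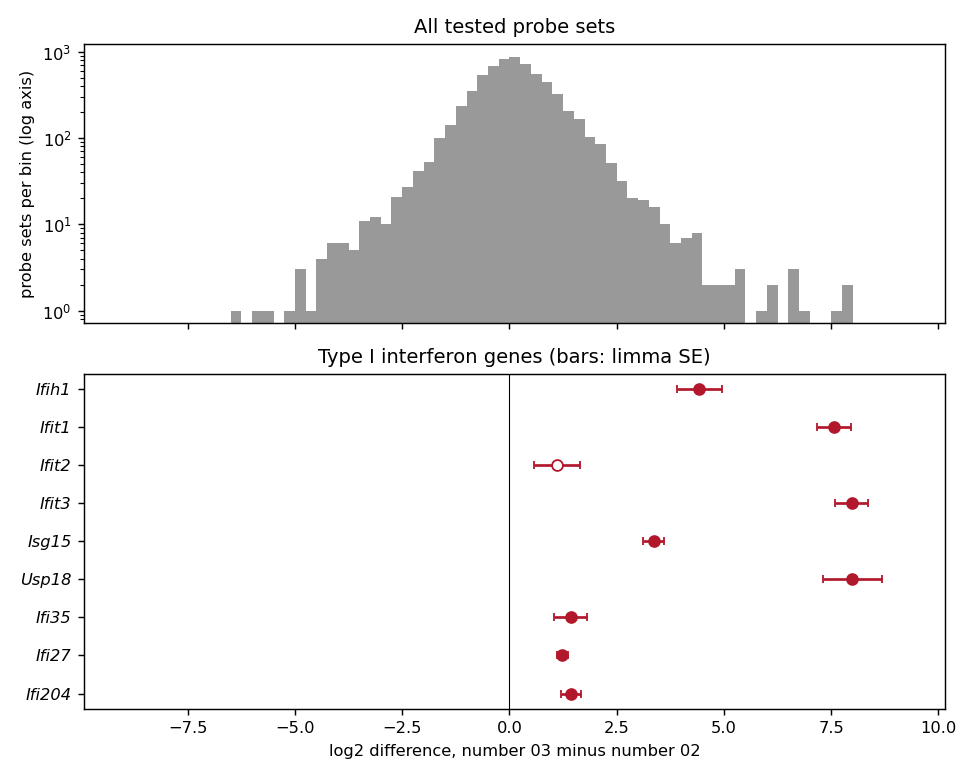
The upper plot gives the number of tested probe sets per bin of the log2 difference of number 03 minus number 02 (log y axis), and the lower plot the 9 genes with limma standard errors, filled where the adjusted p was under 0.05. Usp18, Ifit3 and Ifit1 lie toward the right end, at 8.0, 7.98 and 7.56, which became 5.65, 6.81 and 6.83 with values under 5 set to 5; Usp18 and Ifit3 were tested only through number 03 arrays, and Ifit2 is the open point.

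The design asks how Stat3 KO cells differ from Stat3 WT cells, and within number 03 most of these genes were higher in Stat3 KO cells. This within-number comparison was chosen after the data were seen. It averages the OSM pair and the untreated pair of a number, takes the spread from both numbers, and has 3 residual degrees of freedom. The fit gives OSM 1 additive term, the same for both genotypes and numbers. As a number holds 1 array of each group, the spread is how far the OSM differences vary between genotypes and numbers. It is not a spread of replicates. In number 03, 7 of the 9 genes were higher in Stat3 KO cells (limma adjusted p under 0.05), where 6.78% of all tested probe sets differed and 3.83% were higher. The same 7 had both Stat3 KO arrays above both Stat3 WT arrays, as did 23.2% of tested probe sets. The median difference over the 9 genes was 2.41 with OSM and 1.89 untreated, beside 0.02 and -0.07 over all tested probe sets. Of the cell type markers tested, 3 of 10 fibroblast genes were called lower in Stat3 KO cells of number 03, as were 199 of all 6756 tested probe sets. The differences were -1.10 for Dcn (limma adjusted p = 0.0167), -1.18 for Pdgfra (limma adjusted p = 0.0338) and -5.28 for Lum. Lum was over 5 only in Stat3 WT cells of that number, so it could enter this test only by being higher there. Of 2 leukocyte genes tested, Cd14 was lower, with a difference of -1.68 (limma adjusted p = 0.0433). The summed leukocyte list was 10.29 to 11.40 in Stat3 KO arrays and 10.73 to 11.87 in Stat3 WT arrays. The part of these genes in the result was not tested.

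The fitted difference was widest for Usp18 among the 9, whose pairs differed by 4.42 with OSM and 3.59 untreated, which gave 4.01 ± 0.65 (limma SE, adjusted p = 0.0228). Ifit3 differed by 4.73 with OSM and 2.98 untreated, with a fitted difference of 3.85 ± 0.81 (limma SE, adjusted p = 0.0459). Ifih1 differed by 2.88 and 2.30 in these pairs, with a fitted 2.59 ± 0.41 (limma SE, adjusted p = 0.0220). In each of these genes the OSM pair was further apart than the untreated pair. The pairs of Ifit2 differed by 3.36 with OSM and 1.31 untreated, a fitted 2.33 ± 0.49 (limma SE, adjusted p = 0.0459). Isg15 and Ifi35 differed almost equally in both pairs, Isg15 by 2.06 with OSM and 2.27 untreated (fitted 2.17 ± 0.19, limma SE, adjusted p = 0.00413), and Ifi35 by 1.69 in each (fitted 1.69 ± 0.16, limma SE, adjusted p = 0.00473). Ifit1 differed by 2.41 with OSM and 1.89 untreated (fitted 2.15 ± 0.36, limma SE, adjusted p = 0.0248). Ifi204 (0.30 ± 0.17, limma SE, adjusted p = 0.395) and Ifi27 (-0.06 ± 0.17, limma SE, adjusted p = 0.928) did not pass. The second probe set of Ifi204 had the opposite sign, at -0.26 ± 0.27 (limma SE, adjusted p = 0.689), with pairs of -0.03 with OSM and -0.50 untreated. By the probe set with the highest mean of each gene, Ifi27 was the only member lower in Stat3 KO cells with OSM, by 0.24.

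The count of 7 depended on single arrays and on the filter. The number of all probe sets called changed with single arrays as well, and both ranges are given in the section on processing. It was 5 without the filter on low values, where Ifit2 (adjusted p = 0.0587) and Ifit3 (adjusted p = 0.0546) did not pass. With the filter and 1 array left out in turn, the members' median ranged from 1.85 to 2.56. Leaving out an array of number 03 leaves 1 pair of that number.

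Within number 02 fewer of the genes were higher in Stat3 KO cells. Ifit1, Ifi204 and Isg15 passed, 3 of the 9, where 5.58% of all tested probe sets differed and 2.56% were higher. Ifit1 differed by 4.27 with OSM and 3.20 untreated, a fitted 3.74 ± 0.36 (limma SE, adjusted p = 0.00389). With values under 5 set to 5, which changes both Stat3 WT arrays, its difference was 2.26 (adjusted p = 0.0604). Ifi204 differed by 1.51 with OSM and 1.02 untreated (fitted 1.27 ± 0.17, limma SE, adjusted p = 0.0147), and Isg15 by 1.0 and 1.40 (fitted 1.20 ± 0.19, limma SE, adjusted p = 0.0242). The second probe set of Ifi204 differed by 0.30 ± 0.27 (limma SE, adjusted p = 0.557). Among the markers the fibroblast gene Dcn was higher in Stat3 KO cells of number 02 by 1.46 (limma adjusted p = 0.00568). The epithelial gene Krt8 differed by -2.89, but it was over 5 only in Stat3 WT cells of number 02 and could enter the test only by being higher there.

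Other members of number 02 did not pass. Ifit3 differed by 2.49 ± 0.81 (limma SE, adjusted p = 0.136), and its Stat3 KO OSM array, at 7.05, was the only one of the 4 over 5. Usp18 differed by 1.50 ± 0.65 (limma SE, adjusted p = 0.230) with every array under 5, so its difference there lies between values near background. Ifih1 differed by 1.08 with OSM and -0.56 untreated, so its pairs went opposite ways. Ifit2, Ifi35 and Ifi27 differed by 0.08, -0.04 and 0.06 (limma adjusted p = 0.936, 0.912 and 0.868). Both Stat3 KO arrays lay above both Stat3 WT arrays in 4 of the 9 genes, Ifit1, Ifit3, Isg15 and Usp18, as in 19.8% of tested probe sets. With 1 array left out in turn the members' median ranged from 0.94 to 1.20. The count of 3 changed with the array left out, as did the number of all probe sets called, and both ranges are in the section on processing.

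Whether the genotype difference itself differed between the numbers was tested as a term of the same fit. Ifi35 passed, 1 of the 9 genes, where 5.17% of all tested probe sets passed and 2.98% had the larger difference in number 03. Its genotype difference was 1.69 in number 03 and -0.04 in number 02, a change of 1.73 ± 0.22 (limma SE, adjusted p = 0.0141). Ifih1 changed by 2.33 ± 0.58 (limma SE, adjusted p = 0.0801) and Ifit2 by 2.25 ± 0.69 (limma SE, adjusted p = 0.130), neither passing. Ifit1 and Ifi204 had the smaller difference in number 03, with changes of -1.58 ± 0.51 (limma SE, adjusted p = 0.144) and -0.97 ± 0.24 (limma SE, adjusted p = 0.0824), also without passing. With 1 array left out in turn the change of Ifi35 ranged from 1.63 to 1.82, but whether it passed depended on the array. The count of members that passed changed with the array left out, as did the number of all probe sets called, and both ranges are in the section on processing. With values under 5 set to 5, Usp18 passed as well.

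**Figure D3:**
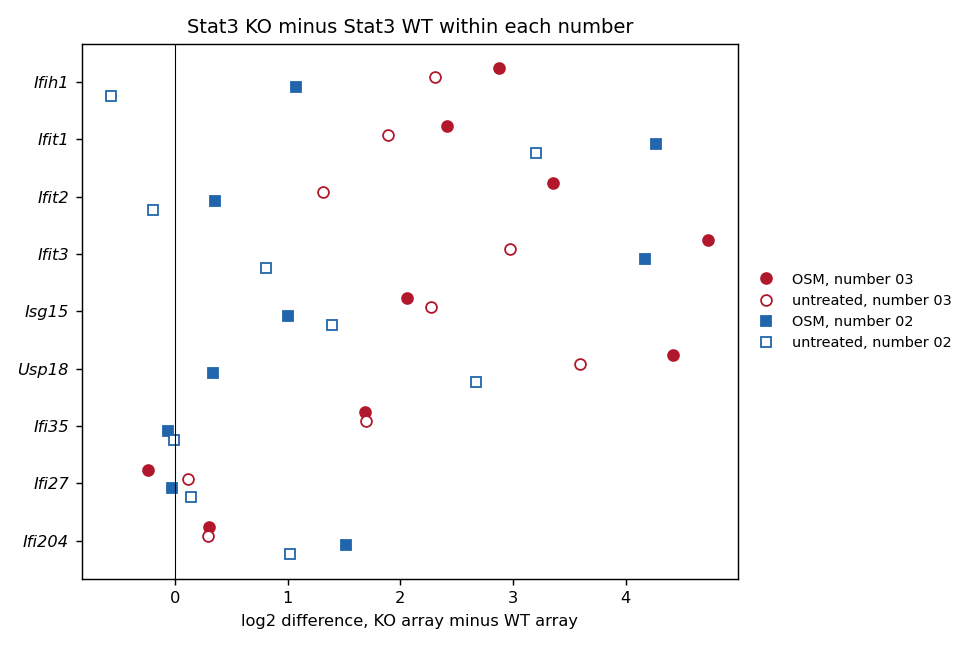
Log2 difference of the Stat3 KO array minus the Stat3 WT array (x axis) for each gene within each number, with filled symbols for OSM and open symbols for untreated pairs. In number 03 (red) 7 genes lie above 1 in both pairs, and in number 02 (blue) only Ifit1, Isg15 and Ifi204 do.

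Over all 8 arrays as 4 groups, without regard to number, none of the 9 genes passed in a genotype comparison. Limma called 0 members with OSM, where 0.0148% of tested probe sets were called, 0 untreated, where 0% were called, and 0 in the mean of both, where 0.0148% were called. At an unadjusted p under 0.05 the members numbered 0 in each, and the probe sets numbered 243 (3.6%) with OSM, 151 (2.24%) untreated and 388 (5.74%) in the mean. The medians of the 9 genes were 1.86 with OSM, 0.87 untreated and 1.42 in the mean. The difference between the numbers enters the spread here: Ifit1 had a mean of 11.49 ± 4.44 in Stat3 KO OSM and 8.15 ± 5.76 in Stat3 WT OSM cells (SD, n = 2 each).

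With number as a block the spread narrowed, and still 0 members passed. In the mean of both comparisons 0.429% of tested probe sets were then called, with OSM 0.104% and untreated 0%. The smallest adjusted p-values of the blocked mean were those of Ifit3 (3.17 ± 0.39, limma SE, adjusted p = 0.0521), Ifit1 (2.94 ± 0.40, limma SE, adjusted p = 0.0590) and Isg15 (1.68 ± 0.24, limma SE, adjusted p = 0.0654). At an unadjusted p under 0.05 the blocked fits held 6 members in the mean (17.4% of tested probe sets), 5 with OSM (12%) and 4 untreated (9.67%). In 5 genes, Ifit1, Ifit3, Isg15, Ifi204 and Usp18, the Stat3 KO array lay above its Stat3 WT partner in all 4 pairs, as in 9.98% of tested probe sets. The second probe set of Ifi204 did not hold this order. It differed by -0.03 with OSM and -0.50 untreated in number 03, and by 0.40 and 0.19 in number 02. For Usp18 in number 02, and for Ifit3 in its untreated pair of that number, all values compared lay under 5. Both Stat3 KO OSM arrays lay above both Stat3 WT OSM arrays in Ifit2 alone (11.2% of tested probe sets), and no member had that order among untreated arrays (6.81%) or over all arrays (1.78%).

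The design also asks what OSM did in each genotype, and no member passed a test of that response. Limma called 0 of the 9 in Stat3 KO cells and 0 in Stat3 WT cells, where 0% of tested probe sets were called in either. At an unadjusted p under 0.05 stood 0 members in each, beside 138 probe sets (2.04%) for the Stat3 KO line and 126 (1.87%) for the Stat3 WT line. With number as a block the members called stayed at 0, where 0.0296% of tested probe sets were called in the Stat3 KO line and 0.0148% in the Stat3 WT line. The median OSM response of the 9 genes was 1.20 in Stat3 KO cells of number 03 and 0.90 in those of number 02, against 0.67 and 0.95 in Stat3 WT cells.

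Ifi204 was higher with OSM by 1.63 in Stat3 KO cells of number 03, 1.71 in those of number 02, 1.62 in Stat3 WT cells of number 03 and 1.22 in those of number 02, so every pair pointed the same way. Averaged over both genotypes, a comparison chosen after the data were seen, it differed by 1.55 ± 0.63 (limma SE, adjusted p = 1), and with number as a block by 1.55 ± 0.24 (limma SE, adjusted p = 0.109). In the averaged comparison 0% of tested probe sets were called and 255 (3.77%) had an unadjusted p under 0.05, Ifi204 alone among the members. With the block 0.118% were called, and 4 members stood at an unadjusted p under 0.05, as did 13.1% of tested probe sets. A probe set shared by Ifi204 and its relatives Mndal, Ifi211 and Ifi205 gave 2.07, 1.88, 2.27 and 1.78 in the same pairs. The second probe set of Ifi204 alone gave 0.90, 0.28, 0.44 and 0.07, so the probe sets differed in size and not in sign. Near-identical relatives of Ifi204 lie beside it in the genome, and signal from their transcripts cannot be told apart on the shared probe set. Whether the probe sets of Ifi204 alone also take up such signal was not tested. The one with the highest mean read 10.60 to 14.24, the second 5.87 to 7.87 and the shared one 9.32 to 14.70.

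Ifit1, Isg15, Ifih1 and Ifi35 were also higher with OSM in all 4 pairs, which with Ifi204 made 5 of the 9 genes, where 13.4% of tested probe sets had that order. Their differences ran from 0.67 to 2.17 for Ifit1, 0.51 to 1.20 for Isg15, 0.99 to 2.63 for Ifih1 and 0.69 to 0.95 for Ifi35. Ifi35 had the narrowest range of these, and Ifih1 the widest.

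Ifit3 and Ifit2 were higher with OSM in Stat3 KO cells and only slightly lower in Stat3 WT cells, none of these changes passing. Ifit3 was higher with OSM by 1.47 and 2.93 in Stat3 KO cells of numbers 03 and 02, and lower by 0.29 and 0.43 in Stat3 WT cells. Ifit2 was higher by 1.87 and 0.52 in Stat3 KO cells, and lower by 0.18 and 0.03 in Stat3 WT cells. In number 02 the Ifit3 values other than Stat3 KO OSM lay under 5. The interaction, which tests whether the OSM response differed between the genotypes, called 0 members and 0% of tested probe sets, with 29 probe sets (0.429%) and 0 members at an unadjusted p under 0.05. For Ifit3 it was 2.56 (limma adjusted p = 1), and with number as a block its unadjusted p was 0.0186 (adjusted p = 0.913). Usp18 was higher with OSM by 1.01 in Stat3 KO cells of number 03 and 0.18 in Stat3 WT cells, while in number 02, where all its values lay under 5, the Stat3 KO pair differed by -1.85 and the Stat3 WT pair by 0.48. Ifi27 moved by -0.16 and -0.32 in Stat3 KO cells of numbers 03 and 02 and by 0.19 and -0.14 in Stat3 WT cells.

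**Figure D4:**
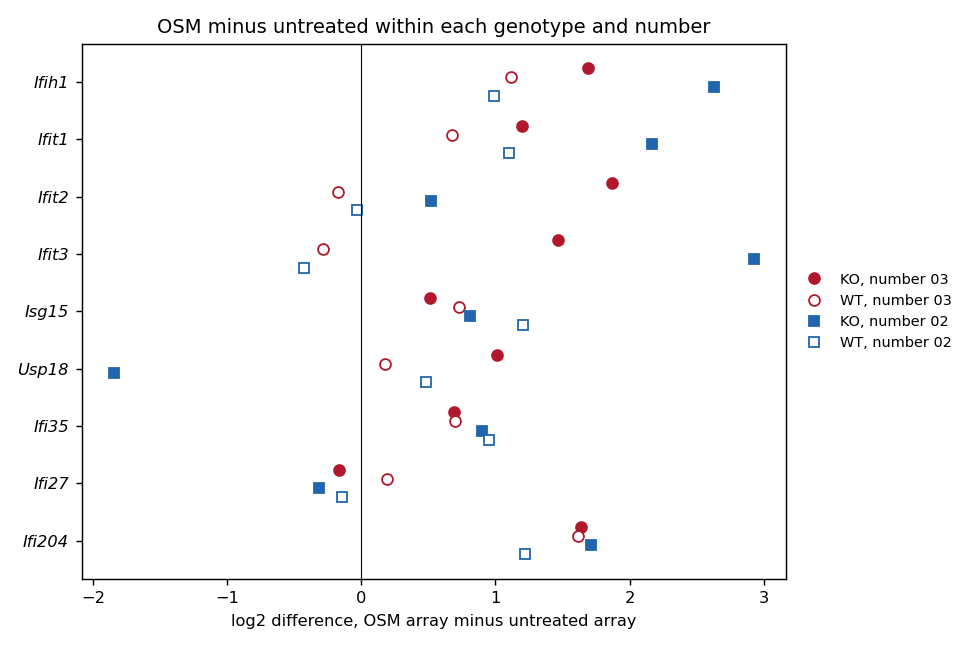
Log2 difference of the OSM array minus the untreated array (x axis) for each gene within each genotype and number, with filled symbols for Stat3 KO and open symbols for Stat3 WT. Ifi204 lies between 1.22 and 1.71 in all 4 pairs, and Ifit3 lies above 0 in Stat3 KO and below 0 in Stat3 WT cells.

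The other genes of the pathway were read from 7 lists of 80 genes chosen from general knowledge, of which 51 were on the array and 39 were tested. Between the numbers 17 of the 39 were higher in number 03 (23.4% of all tested probe sets) and 1 was lower. Of the 17, Irf7 and Mx2 reached the filter only through number 03. In number 03, 11 were higher in Stat3 KO cells in the fit with the filter (3.83% of all) and 1 was lower. Irf7, Mx1 and Rsad2 among the 11, and Socs1 among the genes not called, reached the filter only through those cells, which leaves 8 of 35. In number 02, 1 was higher, a share of 2.56% that equals the 2.56% over all tested probe sets, and 1 was lower. The medians were 0.97 between numbers, 0.76 between genotypes in number 03 and 0.03 in number 02, beside 0.09, -0.02 and -0.04 over all tested probe sets.

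Of the ligands none of the 3 tested passed in the fit with the filter. In the fit without the filter Ifna4 differed between the numbers by 0.53 (limma adjusted p = 0.0246), where 7210 of all 12422 probe sets were called. Ifnb1, the interferon made by fibroblasts, read 3.87 to 4.48 on all arrays, so it did not reach the filter and was not tested with it. The receptor chain Ifnar2 was higher in number 03 by 1.58 ± 0.29 (limma SE, adjusted p = 0.0120), while Ifnar1 differed by -0.45 ± 0.15 (limma SE, adjusted p = 0.0637). Neither passed between genotypes within a number. The kinase Jak1 was higher in number 03 by 0.95 ± 0.12 (limma SE, adjusted p = 0.00511). Jak2, a kinase of the gp130 and interferon-gamma receptors, was lower in Stat3 KO cells, with a difference of -1.57 ± 0.25 in number 03 (limma SE, adjusted p = 0.0216) and of -2.53 ± 0.25 in number 02 (limma SE, adjusted p = 0.00396). Stat2 was not analysed here. Irf9, the DNA-binding subunit of the complex at the ISRE, read 11.24, 9.99, 11.17 and 10.05 in Stat3 KO OSM, Stat3 WT OSM, Stat3 KO untreated and Stat3 WT untreated cells of number 03 and 9.73, 9.42, 4.97 and 7.34 in those of number 02. It was above every number 02 array on all number 03 arrays, but its difference of 2.75 ± 0.91 did not pass with the filter (limma SE, adjusted p = 0.0577). In the fit without the filter, which called 7210 of all 12422 probe sets, Irf9 passed (limma adjusted p = 0.0424).

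Irf7, the factor that amplifies interferon production, read 10.71 in Stat3 KO OSM, 4.83 in Stat3 WT OSM, 9.63 in Stat3 KO untreated and 3.45 in Stat3 WT untreated cells of number 03, and 3.05, 3.02, 2.94 and 2.94 in number 02. It was over 5 only in the Stat3 KO cells of number 03, and values under 5 have no exact difference. The genotype difference was 6.03 in number 03 and 0.02 in number 02, and a fit without the filter gave an SE of 0.35 for each (limma adjusted p = 0.000637 and 0.976). Irf5, a relative, read 8.62, 3.36, 6.82 and 3.49 in these groups of number 03 and 7.13, 5.97, 5.90 and 4.58 in number 02. It was higher in Stat3 KO cells of number 03 by 4.29 ± 0.46 (limma SE, adjusted p = 0.00709). That size is not exact, as both Stat3 WT arrays of number 03 lay under 5. Between the numbers Irf5 differed by -0.32 ± 0.70 (limma SE, adjusted p = 0.729), which includes these values.

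Among the other effectors 9 of 17 tested were higher in Stat3 KO cells of number 03 (3.83% of all tested probe sets), or 7 of 15 without Mx1 and Rsad2, which were over 5 only there. Of those called, Mx2, Ifi47, Adar and Sp100 did not pass in the fit without the filter (limma adjusted p = 0.0577, 0.0570, 0.0628 and 0.0558). Mx1, a GTPase that blocks influenza virus, read 11.19, 4.52, 8.63 and 4.57 in the 4 groups of number 03 (Stat3 KO OSM, Stat3 WT OSM, Stat3 KO untreated, Stat3 WT untreated) and 3.99, 3.60, 3.86 and 3.82 in number 02. Like Irf7 it was over 5 only in Stat3 KO cells of number 03, and its genotype difference there was 5.36, with an SE of 0.64 in the fit without the filter (limma adjusted p = 0.0104). Rsad2, which encodes the antiviral protein viperin, differed by 6.0, with an SE of 0.97 in that fit (limma adjusted p = 0.0289). With the filter, the TRIM family protein Trim30a differed by 4.37 ± 0.49 (limma SE, adjusted p = 0.00777) and the chemokine Cxcl10 by 4.99 ± 0.75 (limma SE, adjusted p = 0.0193). The nuclear body protein Sp100 passed in both numbers with the filter, at 1.04 ± 0.22 in number 03 (limma SE, adjusted p = 0.0481) and 1.29 ± 0.22 in number 02 (limma SE, adjusted p = 0.0287). Without the filter it passed in number 02 alone (limma adjusted p = 0.0284). Between the numbers 8 effectors were higher in number 03 (23.4% of all), Mx2 through number 03 arrays alone, and Ifi30, a lysosomal thiol reductase, was lower, with a difference of -2.12 ± 0.30 (limma SE, adjusted p = 0.00691). Socs1, the feedback inhibitor of interferon signalling, read 11.40, 2.58, 4.10 and 1.49 in number 03 and 8.31, 2.40, 1.14 and 1.13 in number 02. It was over 5 in Stat3 KO OSM cells alone, in both numbers, so it reached the filter only through them. Socs1 passed none of the fits over all 8 arrays. For genotype within numbers 03 and 02 the fit without the filter gave limma adjusted p = 0.157 and 0.425. For OSM averaged over the genotypes the replicate block, with the filter, gave limma adjusted p = 0.101.

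**Figure D5:**
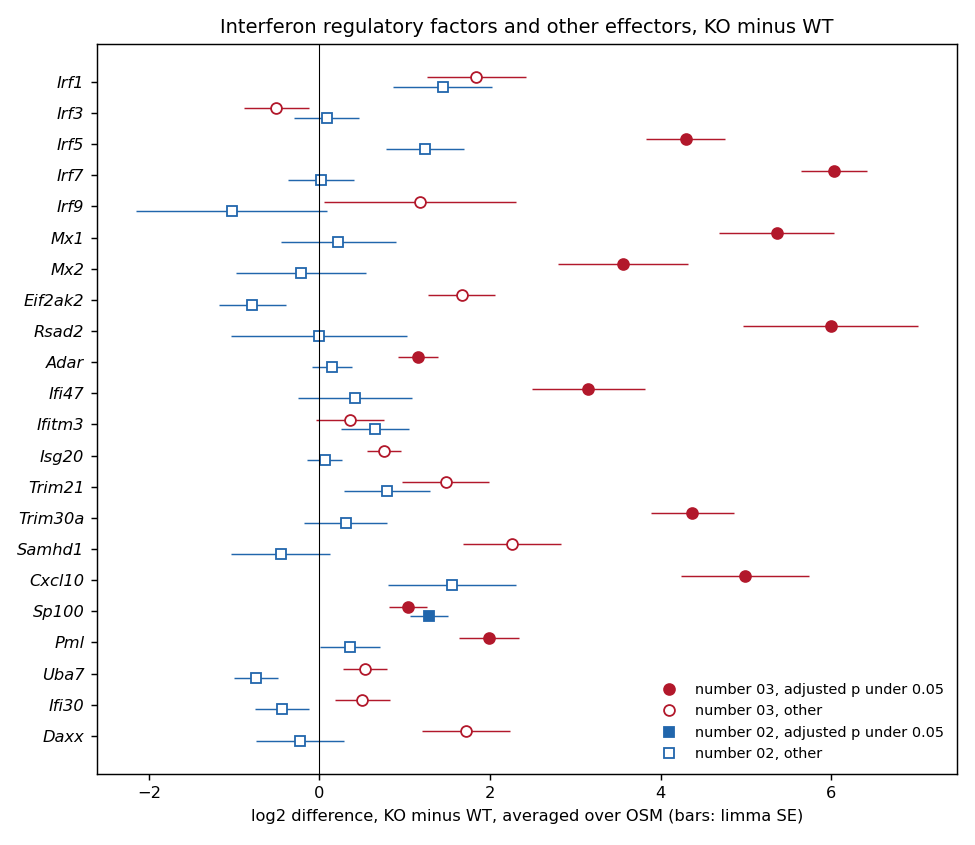
Log2 difference of Stat3 KO minus Stat3 WT (x axis) for tested interferon regulatory factors and other effectors, averaged over OSM within number 03 (red) and number 02 (blue), with limma standard errors and filled symbols where the adjusted p was under 0.05. Irf7, Rsad2 and Mx1 lie at 6.03, 6.0 and 5.36 in number 03 and near 0 in number 02, all 3 over 5 only in Stat3 KO cells of number 03. Symbols are filled by the fit with the filter, in which Sp100 passed in both numbers, while without the filter its number 03 difference did not pass.

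How alike the 9 genes were across arrays is given as a description, over 8 arrays that share the difference between the numbers. Each gene's correlation with the mean of the other 8 was 0.989 for Isg15, 0.985 for Ifit3, 0.968 for Ifih1, 0.966 for Ifit1, 0.950 for Usp18, 0.891 for Ifi35, 0.854 for Ifi27, 0.765 for Ifi204 and 0.745 for Ifit2. After the mean of each number was subtracted the range was 0.617 to 0.965 for 8 of them, with Isg15 the highest and Ifi204 the lowest, and Ifi27 fell to -0.376. Among 5195 genes those most like the mean of the 9 over the 8 arrays were Hoxc9 (0.992), Fos (0.986), Gm9706 (0.984), Ttc39b (0.980), Lama4 (0.971), Chrnb1 (0.969), Prss12 (0.967) and Gbp3 (0.967). With each number's mean subtracted they were Tars (0.978), Lima1 (0.975), Fkbp5 (0.974), Tor3a (0.969), Rlim (0.967), Irf5 (0.960), Cxcl10 (0.959) and Eif2s3y (0.958). The lists share no gene, and Irf5 and Cxcl10 are also in the pathway lists.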

How the data were processed

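Total RNA of MEFs was hybridised to 8 Affymetrix arrays by the authors. Each deposited value is a log2 level of a probe set, and the submitters' processing notes name GCRMA and affy, whose versions the sources used here do not give. GCRMA shrinks dim probe sets toward low values, which can enlarge a log2 difference from background. Of 12488 probe sets 66 controls were set aside, and 10855 had 1 gene symbol. A gene was represented by its tested probe set with the highest mean. Probe sets at log2 5 or more on at least 2 arrays entered limma 3.58.1 under R 4.3.3 (lmFit, eBayes with trend, two-sided) on all 8 arrays, with Benjamini-Hochberg adjustment over all 6756 and a threshold of 0.05. In the number and within-number comparisons, a member or pathway gene described here that reached 5 on fewer than 2 arrays outside the higher group is named. Its test, where printed, was taken from a fit without the filter, added after the data were seen. That fit was not used for the cell type markers or for OSM averaged over the genotypes. Groups and numbers come from the sample titles, since the description mentions OSM for untreated samples too. The differences of number 03 minus 02 correlated at 0.589 to 0.911 between all pairs of groups, so on the data's evidence the numbers pair the arrays. The number of arrays limits the precision. Named genes were all members on every array, pathway genes taken whatever their result (Stat3, Irf9, Stat2, Ifnar1, Ifnar2, Irf7, Socs1; another is not reported here), up to 4 passing genes per pathway list and comparison, and the 8 genes most like the members. The members and lists were chosen with earlier results of these data known. Other settings were other filters, eBayes without trend or robust, only the groups compared, quantile normalization, median centring, values under 5 set to 5, the replicate block, the most variable probe set and leaving out each array. Promoters came from RefSeq GRCm38.p6.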

Additional observations from a re-analysis of the deposited data

Results flagged for a closer look

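The Stat3 KO minus Stat3 WT difference of Ifi35 was larger in number 03 than in number 02 by 1.73, by limma's test of the difference itself (adjusted p = 0.0141). The call was lost without any 1 of 6 of the 8 arrays.

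A probe set shared by Ifi204, Mndal, Ifi211 and Ifi205, which belongs to no single gene, was higher with OSM than in untreated cells by 2.0 on average over the 4 pairs of genotype and number, above its untreated partner in each. It did not pass (limma adjusted p = 1, and 0.0968 with the replicate block).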

How the results depend on the processing

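The replicate block called 7 probe sets for genotype with OSM, 29 for genotype averaged, 1 for OSM in Stat3 WT, 2 for OSM in Stat3 KO and 8 for OSM averaged, and 0 of the 9 genes in each. Genotype with OSM had 0 probe sets called without the trend, with robust estimation, with only the groups compared, after quantile normalization, after median centring and with values under 5 set to 5. Without the filter 3 probe sets were called for genotype averaged, 1 for OSM averaged and 7210 between the numbers. OSM averaged gave 1 after quantile normalization, 2 after median centring and 1 with values under 5 set to 5, which also gave 1 for OSM in Stat3 KO. The members' median with values under 5 set to 5 was 0.34 for OSM in Stat3 WT, 0.42 for the interaction, 1.73 for the genotype by number difference (2 members called) and 0.26 for genotype within number 02, the values at background being fixed by that setting. Quantile normalization gave medians of 0.20 for the interaction and 1.58 for genotype by number, and median centring 0.14 for the interaction. Within number 02 the small genotype differences turned sign in Ifi35 after quantile normalization (0.032) and in Ifit2 (-0.0070) and Ifi27 (-0.028) after median centring, and Usp18 was 0 with values under 5 set to 5. The cause of these changes was not tested otherwise.

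Leaving out 1 array in turn unbalances the numbers. The members' median then ranged from 0.48 to 2.68 for genotype averaged, -0.28 to 3.38 for genotype with OSM, -0.42 to 3.83 for genotype untreated, -0.87 to 2.66 for OSM in Stat3 KO, -0.61 to 2.52 for OSM in Stat3 WT, -0.19 to 1.81 for OSM averaged and -1.93 to 2.76 for the interaction, where Ifit3 ranged from -2.14 to 7.26. It ranged from 1.85 to 2.56 for genotype within number 03, 0.94 to 1.20 within number 02 and 0.91 to 1.80 for genotype by number. Members called numbered 1 to 7, 0 to 4 and 0 to 5 in these last 3, and probe sets called 42 to 982, 84 to 712 and 24 to 823. Probe sets called between the numbers ranged from 1223 to 2599, and from 0 to 1 for genotype averaged and genotype with OSM. Ifi27 ranged from -0.26 to 0.14 within number 03, -0.081 to 0.20 within number 02 and -0.32 to 0.079 for genotype by number, and within number 02 Ifi35 ranged from -0.13 to 0.059, Ifih1 from -0.43 to 0.94 and Ifit2 from -0.31 to 0.46. Values under 5 limit what can be said of Usp18, Ifit1 and Ifit3 in number 02.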

Other observations

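Tested genes whose RefSeq promoter window held 2 or more ISRE matches numbered 17, Ifit1, Ifit3 and Isg15 among them. Their median difference of number 03 minus number 02 was 1.04, and 52.9% were called higher in number 03. Without these 3 members 14 remained, with a median of 0.69 and 42.9% called higher. Of 157 genes with at least 1 match, members left out, 26.8% were called higher, beside 21.7% of 4083 genes with none. In Stat3 KO against Stat3 WT cells of number 03, 29.4% of the 17 were called higher, 3 of the 5 being members, or 14.3% of the 14. Of the 157 genes 8.92% were called higher and 5.73% lower there, beside 3.5% and 2.72% of the 4083. In number 02, 11.8% of the 17 and 0% of the 14 were called higher. The 157 had 1.91% called higher and 2.55% lower in number 02, beside 2.38% and 3.21% of the 4083. These are counts without a test, as the members were chosen with results known.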
